A study of Mus musculus with 24 samples.

Results

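The nucleolus builds ribosomes. RNA polymerase I transcribes the ribosomal RNA precursor there, small nucleolar ribonucleoproteins (snoRNPs) guide its chemical modification, and a large set of processing and assembly factors cuts, folds and packs it with ribosomal proteins into the 40S and 60S subunits. T lymphocytes that are stimulated through their antigen receptor are known to grow and then divide, and the nucleolus is known to enlarge in that process. Many of these factors are textbook targets of the transcription factor MYC, which binds with its partner MAX to E-box sequences such as CACGTG.

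45 genes for such factors were examined, listed by name from this pathway, and the table of UMI counts lists 55414 genes in all. By role they comprised 3 RNA polymerase I subunits, 7 nucleolar chaperones and multifunctional proteins, 8 proteins of the box C/D and H/ACA snoRNPs, 15 factors of the small subunit processome and 40S assembly, and 12 factors of 60S assembly. 44 of the 45 passed the filter on low counts. Nop10, a core protein of the H/ACA snoRNPs, did not, as it stood at 0 to 5.72 CPM (a gene's UMIs as a share of its library, scaled as counts per 1e+06) in 23 libraries and at a single count in the shallow library described below.

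The cells were splenic Tconv CD4+ cells (CD4+ CD25-) of conplastic mice, which share the C57BL/6J nuclear genome and differ in their mitochondrial DNA. One line carried the mtDNA of C57BL/6J, called mtDNA B6 here and labelled WT, and the other that of the NZB strain, called mtDNA NZB. Cells were either resting or activated for 72 h with beads coated with antibodies to CD3 and CD28, which engage the antigen receptor and its costimulator, together with the T cell growth factor IL-2. Each haplotype and state had 6 libraries, 24 in total, prepared with the bulk version of MARS-seq, which counts 3′ ends of transcripts by unique molecular identifiers (UMIs). The labels give neither age nor sex and name no agent given to all 4 groups, and they do not say outright that the libraries of a group came from separate mice.

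Depth was 2430562 to 5456681 UMIs in the mtDNA B6 libraries and 641467 to 6449395 in the activated mtDNA NZB libraries. Resting mtDNA NZB replicate 2 held 51409 UMIs, so that a single count there equals 16.7 CPM, and it is given apart from the 5 deep libraries of its group. The T cell markers Cd3e and Cd4 were present in every library, at 215 to 376 and 351 to 772 CPM. Markers of other cells moved with activation: the summed level of 9 neutrophil and precursor markers was 707 to 8381 CPM in resting and 8.53 to 83.8 CPM in activated mtDNA B6 cells, and 440 to 22492 against 8.02 to 199 CPM in mtDNA NZB cells. All 9 fell at an adjusted p of at most 0.05 in both haplotypes. So did the 5 myeloid markers tested and 7 of 8 erythroid markers, while the 2 CD8 T cell markers rose. Summed B cell markers showed no such fall, with medians of 484 CPM in resting and 625 CPM in activated mtDNA B6 libraries. With mtDNA NZB the medians were 593 CPM in the 5 deep resting libraries and 555 CPM after activation, where they ranged from 105 to 1205 CPM. The NK gene Klra8 was at 0 in all 24 libraries, but Klrb1c of the same list was at 0 in only 1. The macrophage gene C1qa was at 0 in every activated library, while the myeloid genes Lyz2 and Cd68 were still counted in all of them, at up to 53.2 and 17.5 CPM in mtDNA B6 and 85.8 and 13.4 CPM in mtDNA NZB cells. The part of these cells in the results on biogenesis factors was not tested. CPM values are shares of a library, so a change in RNA per cell, or in the number of cells of one type, cannot be told apart from a change in a gene's share.

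The response to activation was modest and divided in direction. 6 of 44 factors rose in mtDNA B6 cells, 4 fell and 34 did not pass the test, while with mtDNA NZB there were 13 that rose, 3 that fell and 28 that did not pass (edgeR's quasi-likelihood test, Benjamini-Hochberg adjusted p of at most 0.05). With a replicate block by label number the 13 became 7, as Mybbp1a and 5 factors of 60S assembly no longer passed. With mtDNA B6 Polr1b, Gnl3 and Ebna1bp2 no longer passed under that block. Gar1 and Ltv1 were gained there with mtDNA B6, and Ltv1 with mtDNA NZB. Among all 10566 genes tested, the shares that rose were 22.4% with mtDNA B6 and 25.2% with mtDNA NZB, and the shares that fell were 24.5% and 28.4%. The median log2 fold change of the 44 factors was 0.02 in mtDNA B6 and 0.14 in mtDNA NZB cells, against -0.03 and -0.06 over all genes, where a log2 value of 1 is a 2-fold change. No factor rose by at least 2-fold in mtDNA B6 cells and 2 did in mtDNA NZB cells, Noc4l and Nhp2, while 7.06% and 9.46% of all genes did so. Over the same libraries all 9 proliferation markers rose in both haplotypes, and 5 of 6 activation markers rose in mtDNA B6 and 4 of 6 in mtDNA NZB cells.

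Summed over the 45 factors, transcripts made up 3545 to 4308 CPM (median 3770) in resting and 4216 to 5428 CPM (median 4559) in activated mtDNA B6 cells. With mtDNA NZB the sum was 3560 to 4971 CPM in the 5 deep resting libraries, 2943 CPM in the shallow one and 4167 to 6175 CPM (median 4739) after activation. The groups therefore overlapped in both haplotypes. Activated mtDNA NZB replicates 1, 2 and 5 held the highest sums, 4878, 5409 and 6175 CPM, and replicates 3, 4 and 6 the lowest, 4167, 4316 and 4600 CPM. The former also had fewer B cell marker transcripts, with 127, 105 and 353 against 758, 966 and 1205 CPM, and fewer CD8 T cell marker transcripts, with 81.5, 85.1 and 124 against 355, 204 and 531 CPM. Proliferation marker transcripts were more abundant in replicates 1, 2 and 5, with 2774, 3121 and 3181 against 2034, 2272 and 1664 CPM. Activation marker transcripts were too, with 637, 607 and 559 against 408, 370 and 348 CPM. The part of any of these 4 marker lists in the sums was not tested, and the split was made by the sums themselves. Without Ncl the medians were 2597 and 2810 CPM in mtDNA B6 cells, so much of the difference in the sum lay in that gene.

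**Figure D1:**
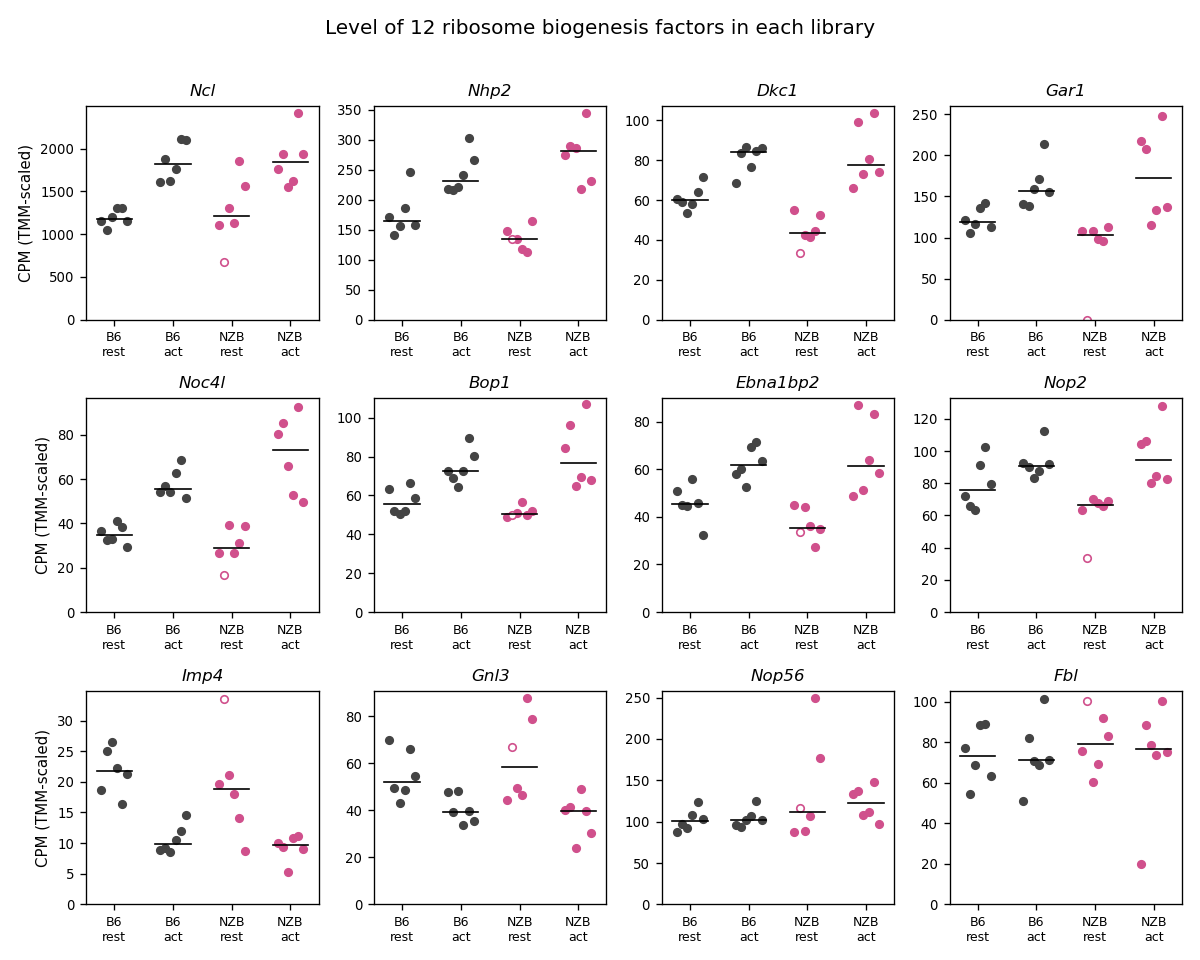
Level of 12 biogenesis factors in each library, in TMM-scaled CPM on linear axes that start at 0, for mtDNA B6 (grey) and mtDNA NZB (pink) cells at rest and after activation. Each point is a library, the open point is the shallow resting mtDNA NZB library and the bar is the median of the 6 libraries. All 6 activated mtDNA B6 libraries lie above all 6 resting ones for Ncl and Noc4l, all 6 lie below for Imp4, and resting mtDNA NZB replicates 5 and 6 stand highest in their group for Nop56, at 250 and 177 CPM.

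The 3 subunits of RNA polymerase I, the enzyme at the head of the pathway, gave negative log2 fold changes in both haplotypes. Polr1b, the second-largest subunit, stood at 10.2 to 19.8 CPM (median 16.4) in resting and 8.56 to 13.5 CPM (median 11.3) in activated mtDNA B6 libraries. These groups overlap, and the fall of 0.45 on the log2 scale (SE 0.19) passed narrowly, at an adjusted p of 0.0476. It passed in 16 of 38 fits, DESeq2 not among them, and its value with mtDNA NZB was -0.02 ± 0.20. Polr1c, a subunit shared with RNA polymerase III, and Polr1a, the largest subunit, did not pass in either haplotype, with values of -0.29 and -0.26 in mtDNA B6 and -0.04 and -0.53 in mtDNA NZB cells.

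Ncl, which encodes nucleolin, a nucleolar RNA-binding protein, rose in both haplotypes. It stood at 1046 to 1305 CPM (median 1179) in resting and 1613 to 2112 CPM (median 1816) in activated mtDNA B6 libraries. The 5 deep resting mtDNA NZB libraries held 1106, 1300, 1125, 1857 and 1557 CPM, the shallow one 669 CPM, and the activated ones 1550 to 2411 CPM (median 1849). The mtDNA B6 groups did not overlap, whereas resting mtDNA NZB replicates 5 and 6 reached the range of the activated libraries. The log2 fold changes were 0.63 ± 0.16 (SE, adjusted p = 0.00176) and 0.53 ± 0.16 (adjusted p = 0.00551), and both held in all 38 fits.

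Of the other nucleolar proteins, Mybbp1a, a nucleolar protein that binds MYB, rose with mtDNA NZB (0.37 ± 0.12, adjusted p = 0.0108) and gave 0.06 with mtDNA B6, where it did not pass, while the test of the difference between these responses had an adjusted p of 0.395. Gnl3, the GTPase nucleostemin, fell in both. It stood at 43.0 to 70.0 CPM (median 52.0) in resting and 33.6 to 48.0 CPM (median 39.4) in activated mtDNA B6 libraries, and its log2 fold changes were -0.45 ± 0.18 (adjusted p = 0.0392) and -0.73 ± 0.19 (adjusted p = 0.00223). The 5 deep resting mtDNA NZB libraries held 44.2, 49.5, 46.5, 87.6 and 79.0 CPM and the activated ones 24.1 to 49.0 CPM. The groups overlapped in both haplotypes. The highest resting values were again replicates 5 and 6, and without them the value was -0.31 and no longer passed. With mtDNA B6 the fall passed in 24 of 38 fits, DESeq2 not among them.

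The remaining members of this group did not pass in either haplotype. They were Nolc1, a chaperone of snoRNPs (0.00 and 0.23 in mtDNA B6 and mtDNA NZB cells), the RNA helicase gene Ddx21 (-0.13 and -0.01), Npm3, a histone chaperone of the nucleoplasmin family (-0.34 and 0.14), and Npm1, which encodes nucleophosmin, an abundant nucleolar chaperone (-0.44 and 0.03). Npm1 was counted at 9.19 to 47.2 CPM in the 23 deep libraries. Of the last 500 bases of its transcript, 277 have a copy elsewhere in the genome at 95% identity or more, and for Npm3 all 500 do, so reads of either could be divided between copies. Whether this lowers their counts was not tested.

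Of the snoRNP proteins, the 3 H/ACA proteins that could be tested all rose in mtDNA NZB cells. Dkc1 and Nhp2 rose with mtDNA B6 as well. None of the 4 box C/D proteins passed in either haplotype in the fit of 24 libraries. The shares of all genes tested that rose were 22.4% with mtDNA B6 and 25.2% with mtDNA NZB. Without resting mtDNA NZB replicates 5 and 6, the box C/D gene Nop58 passed in both haplotypes and Nop56 with mtDNA NZB. Dkc1 encodes dyskerin, the pseudouridine synthase of H/ACA snoRNPs, and Nhp2 and Gar1 encode other proteins of the same core. Nhp2 stood at 141 to 246 CPM (median 165) in resting and 216 to 302 CPM (median 231) in activated mtDNA B6 libraries. With mtDNA NZB it stood at 148, 134, 117, 113 and 165 CPM in the deep resting libraries, 134 CPM in the shallow one, and 218 to 344 CPM (median 280) after activation. The mtDNA NZB groups were separate. The mtDNA B6 groups overlapped through a single resting library at 246 CPM, which lay above the activated median. The log2 fold changes were 0.47 ± 0.14 (adjusted p = 0.00634) and 1.02 ± 0.14 (adjusted p = 1.79e-06).

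Dkc1 stood at 53.4 to 71.4 CPM (median 60.02) in resting and 68.7 to 86.5 CPM (median 84.3) in activated mtDNA B6 libraries. The deep resting mtDNA NZB libraries held 54.8, 42.4, 41.5, 44.7 and 52.2 CPM and the activated ones 65.8 to 104 CPM (median 77.4). Activated libraries lay above the 5 deep resting ones with mtDNA NZB. With mtDNA B6 all but the 1 at 68.7 CPM lay above all resting ones. Its log2 fold changes were 0.40 ± 0.11 (adjusted p = 0.00451) and 0.83 ± 0.12 (adjusted p = 2.78e-06). Gar1 rose in mtDNA NZB cells by 0.81 ± 0.20 (adjusted p = 0.00133) and stood at 0.41 ± 0.19 in mtDNA B6 cells, where it did not pass (adjusted p = 0.0767). In mtDNA B6 cells Gar1 did pass in some other fits, among them the label block and the fit of only the 12 libraries compared. The 3′ ends of Dkc1 and Nhp2 overlap a protein-coding gene on the opposite strand, Mpp1 and Rmnd5b, and the use of strand in the counting is not given in the sources used here.

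Of the box C/D proteins, Fbl encodes fibrillarin, the methyltransferase that 2′-O-methylates ribosomal RNA. It stood at 54.7 to 89.0 CPM (median 73.1) in resting and 50.9 to 101 CPM (median 71.1) in activated mtDNA B6 libraries, with log2 fold changes of 0.01 ± 0.20 and -0.04 ± 0.22. Its groups overlapped throughout. Nop56 and Nop58, the scaffold proteins of the particle, gave 0.03 and 0.28 in mtDNA B6 and -0.20 and 0.05 in mtDNA NZB cells, and Rrp9, a protein of the U3 snoRNP, gave -0.22 and -0.24. 497 of the last 500 bases of Fbl and 491 of those of Nop56 have a genomic copy, so their counts could be divided.

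**Figure D2:**
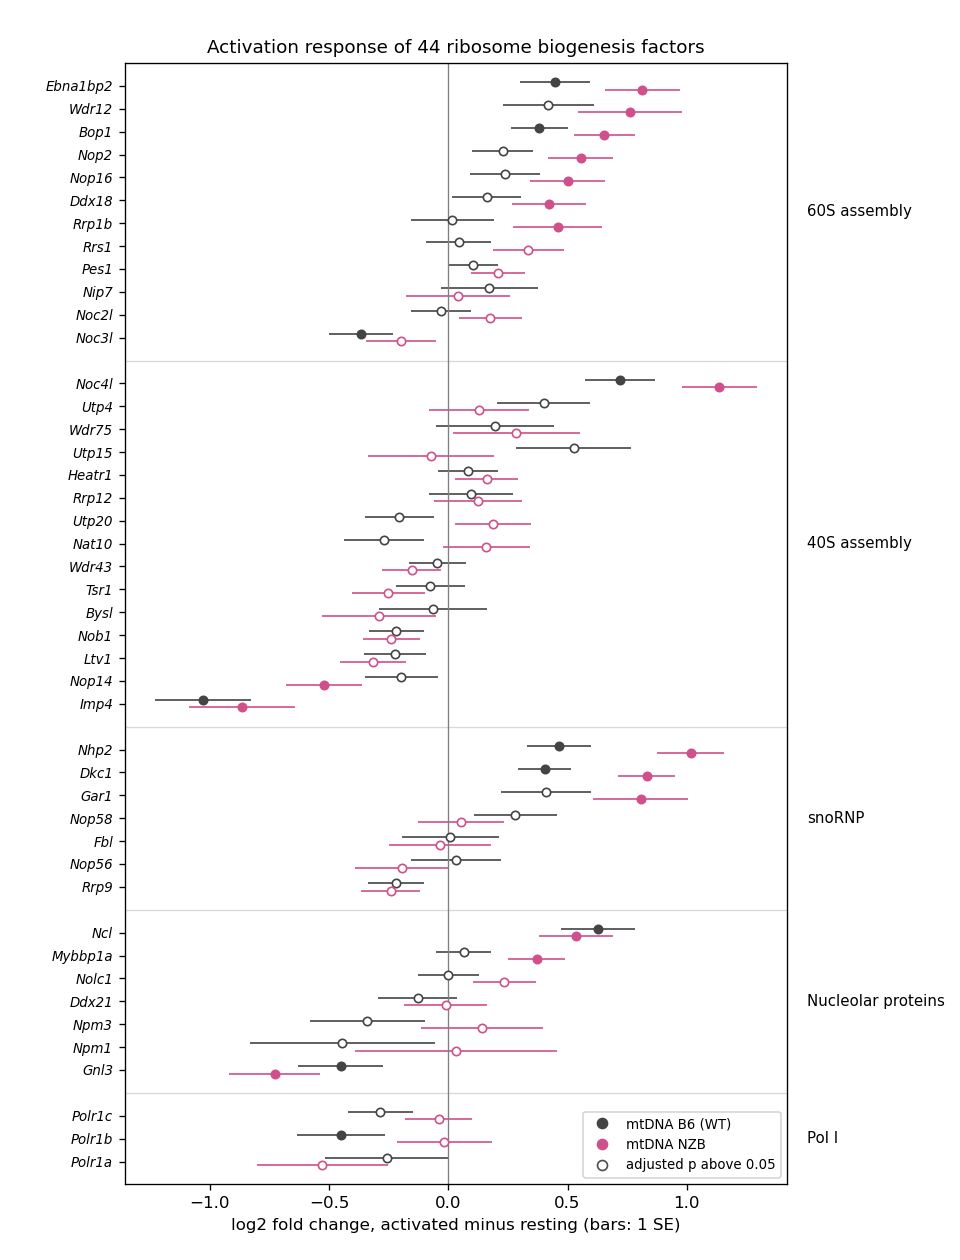
Log2 fold change of activated against resting cells for the 44 factors tested, by role, in mtDNA B6 (grey) and mtDNA NZB (pink) cells. Points are estimates of edgeR's quasi-likelihood fit over 24 libraries, bars are 1 SE, and open points did not pass an adjusted p of 0.05. The 60S assembly factors lie mostly to the right, with 10 of 12 positive in mtDNA B6 and 11 of 12 in mtDNA NZB cells, and Imp4 lies farthest to the left in both.

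Factors of the small subunit processome and 40S assembly included both the highest and the lowest value of all members. Noc4l, a processome protein that partners Nop14 (GRCm39, chr5:110796284-110801290, minus strand), stood at 29.5 to 41.3 CPM (median 34.7) in resting and 51.3 to 68.8 CPM (median 55.4) in activated mtDNA B6 libraries. With mtDNA NZB it stood at 26.6, 39.1, 26.7, 31.0 and 38.7 CPM in the deep resting libraries, 16.7 CPM in the shallow one, and 49.8 to 92.6 CPM (median 73.0) after activation. No activated library overlapped a resting one in either haplotype. The log2 fold changes were 0.72 ± 0.15 (adjusted p = 0.000274) and 1.14 ± 0.16 (adjusted p = 1.68e-06), and both held in all 38 fits.

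Imp4, a protein of the U3 snoRNP (GRCm39, chr1:34478568-34488437, plus strand), fell in both haplotypes. It stood at 16.4 to 26.5 CPM (median 21.8) in resting and 8.56 to 14.6 CPM (median 9.85) in activated mtDNA B6 libraries. The deep resting mtDNA NZB libraries held 19.6, 21.1, 18.1, 14.1 and 8.77 CPM, the shallow one 33.4 CPM from 2 counts, and the activated ones 5.21 to 11.1 CPM (median 9.72). The mtDNA B6 groups were separate, and in mtDNA NZB cells only resting replicate 6 fell within the activated range. Its log2 fold changes were -1.03 ± 0.20 (adjusted p = 0.000179) and -0.87 ± 0.22 (adjusted p = 0.00192), which held in all 38 fits.

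Nop14, the partner of Noc4l, fell in mtDNA NZB cells by 0.52 on the log2 scale (SE 0.16, adjusted p = 0.00773) and stood at -0.20 ± 0.15 in mtDNA B6 cells. The deep resting mtDNA NZB libraries held 98.3, 98.6, 99.4, 199 and 128 CPM, so the fall rested on replicates 5 and 6. Without them the value was -0.14 and did not pass.

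The other 12 factors of this class did not pass in either haplotype. Of the UTP proteins that load first on the nascent precursor, Utp4 gave 0.40 and 0.13, Utp15 0.53 and -0.07, Wdr43 -0.05 and -0.15, Heatr1 0.08 and 0.16 and Wdr75 0.19 and 0.29 in mtDNA B6 and mtDNA NZB cells. Utp20, a scaffold protein of the processome, gave -0.21 and 0.19, and Nat10, the acetyltransferase of 18S ribosomal RNA, gave -0.27 and 0.16. The 5 late factors of 40S maturation had values of -0.06 and -0.29 for Bysl, -0.22 and -0.31 for Ltv1, -0.08 and -0.25 for Tsr1, 0.10 and 0.13 for Rrp12, and -0.22 and -0.24 for Nob1, the endonuclease that makes the 3′ end of 18S ribosomal RNA.

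Of the 12 factors of 60S assembly, 2 rose and 1 fell with mtDNA B6, with a median of 0.17. With mtDNA NZB 7 rose and none fell, with a median of 0.44. Over all genes tested 22.4% rose and 24.5% fell with mtDNA B6, and 25.2% rose and 28.4% fell with mtDNA NZB. The further factors of 60S assembly given below had more that fell than rose in both haplotypes. With a replicate block by label number, in which 4 numbers are shared by resting and activated mtDNA NZB libraries, the 7 became 2, Bop1 and Nop2, while Nop16, Wdr12, Rrp1b, Ebna1bp2 and Ddx18 no longer passed. At an unadjusted p under 0.05 the counts were 4 and 8 factors, and DESeq2 called none lower in mtDNA NZB cells either. Bop1, Pes1 and Wdr12 encode the 3 proteins of the PeBoW complex, which matures the large subunit's ribosomal RNA. Bop1 stood at 50.7 to 66.6 CPM (median 55.4) in resting and 64.5 to 89.7 CPM (median 72.6) in activated mtDNA B6 libraries. With mtDNA NZB it stood at 48.8, 50.8, 56.8, 49.7 and 52.2 CPM at rest in the deep libraries and 64.8 to 107 CPM (median 76.9) after activation, with no overlap. Its log2 fold changes were 0.38 ± 0.12 (adjusted p = 0.0105) and 0.65 ± 0.13 (adjusted p = 0.000115).

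Wdr12 rose in mtDNA NZB cells by 0.76 ± 0.22 (adjusted p = 0.00446) and stood at 0.42 ± 0.19 in mtDNA B6 cells, at 3.99 to 11.6 CPM in the deep libraries. All of its last 500 bases have a copy elsewhere in the genome. Pes1, the third protein of the complex, gave 0.10 and 0.21 and did not pass. The 3 partners thus all had positive values, of which 1 in mtDNA B6 and 2 in mtDNA NZB cells passed.

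Ebna1bp2, a nucleolar protein of pre-60S particles, rose in both haplotypes, by 0.45 ± 0.15 (adjusted p = 0.0148) and 0.81 ± 0.16 (adjusted p = 0.000122). It stood at 32.2 to 56.1 CPM (median 45.2) in resting and 52.6 to 71.3 CPM (median 61.7) in activated mtDNA B6 libraries, and at 27.4 to 44.8 CPM in the deep resting against 48.6 to 86.7 CPM (median 61.1) in the activated mtDNA NZB libraries. The groups overlapped in mtDNA B6 cells, while with mtDNA NZB all activated libraries lay above the 5 deep resting ones. The rise of Ebna1bp2 passed in 35 of 38 fits with mtDNA B6 and in 36 with mtDNA NZB. With a replicate block by label number over 24 libraries it passed in neither haplotype.

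Nop2, which encodes a methyltransferase of 28S ribosomal RNA, stood at 63.4 to 103 CPM (median 75.9) in resting and 83.2 to 112 CPM (median 90.9) in activated mtDNA B6 libraries. The mtDNA NZB libraries held 63.4, 70.2, 67.9, 65.7 and 69.0 CPM in the deep resting libraries, 33.4 CPM in the shallow one, and 80.2 to 128 CPM (median 94.5) after activation. The groups were separate in mtDNA NZB cells only. It rose there by 0.55 ± 0.14 (adjusted p = 0.00129), and in mtDNA B6 cells the value was 0.23 ± 0.13.

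Nop16, Ddx18 and Rrp1b rose with mtDNA NZB, by 0.50, 0.42 and 0.46, and did not pass with mtDNA B6, where they had 0.24, 0.16 and 0.02. Nop16 encodes a nucleolar pre-60S protein, Ddx18 an RNA helicase and Rrp1b a nucleolar protein of the RRP1 family. The rise of Rrp1b passed in 19 of 38 fits, and that of Ddx18 in 30. Noc3l, a relative of Noc4l that acts on pre-60S particles, fell in mtDNA B6 cells by 0.37 on the log2 scale (SE 0.14, adjusted p = 0.0291), from 17.8 to 22.1 CPM at rest to 13.8 to 17.7 CPM after activation, with no overlap. Its value with mtDNA NZB was -0.20 ± 0.15, and the call with mtDNA B6 passed in 26 of 38 fits. The others did not pass, with -0.03 and 0.18 for Noc2l, the partner of Noc3l, 0.04 and 0.33 for Rrs1, which helps place the 5S particle, and 0.17 and 0.04 for Nip7, an early pre-60S factor.

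By separation of libraries, 2 of 44 factors had all activated above all resting mtDNA B6 libraries, Ncl and Noc4l, and 2 had all below, Imp4 and Noc3l. Over all genes tested 15.4% and 16.3% did so. With mtDNA NZB 7 factors had all activated libraries above the 5 deep resting ones, Dkc1, Gar1, Nhp2, Noc4l, Nop2, Bop1 and Ebna1bp2, against 14.2% of all genes, and none had all below, against 13.9%.

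Resting mtDNA NZB replicates 5 and 6 stood apart from the other deep resting libraries in many genes, some of the factors among them. Both lay above all 9 others in 12 members, which were Polr1c, Ncl, Gnl3, Nop56, Nop58, Nop14, Wdr43, Utp4, Nob1, Bysl, Tsr1 and Rrp12, and both lay below in 5, which were Mybbp1a, Imp4, Nat10, Noc3l and Rrp1b. Over all genes 18.0% were above and 17.0% below in this way. Nop56 was the clearest, with 87.0, 88.2 and 106.3 CPM in replicates 1, 3 and 4, 250 and 177 CPM in replicates 5 and 6, and 87.6 to 123 CPM in resting mtDNA B6 libraries. Summed neutrophil and precursor markers were 440 CPM in replicate 5, the lowest of the group, and 22492 CPM in replicate 6, the highest. Summed activation markers were 195 and 232 CPM in replicates 5 and 6, against 64.2 to 114 CPM in the other 10 resting libraries of both haplotypes. The part of either in these values was not tested. Without the pair, Nop56 in mtDNA NZB cells turned from -0.20 to 0.41 and rose by the call. Utp4, Nop58 and Nolc1 reached 0.77, 0.50 and 0.42 there. In that fit 11 factors rose in mtDNA B6 and 16 in mtDNA NZB cells. The share of all genes that rose in that fit is not given here. These counts are therefore not read as a trait of the factors. This set of libraries was chosen after the values were seen.

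The haplotypes were then compared at each state. At rest no factor differed at an adjusted p of at most 0.05, by edgeR or by DESeq2, where 2.76% of all genes did, and 7 factors had an unadjusted p under 0.05 against 20.8% of all genes. 5 of the 7 were lower in mtDNA NZB cells, as were 9.14% of all genes. Dkc1 was lower by -0.39 ± 0.12 (adjusted p = 0.0697), and it passed when resting mtDNA NZB replicate 1 was left out, with -0.45 ± 0.13 (adjusted p = 0.0374). The others were Nhp2 (-0.38), Utp20 (-0.40), Wdr12 (-0.53) and Noc3l (-0.31), with Nop56 (0.45) and Nop14 (0.35) on the higher side, the latter pair among the genes high in replicates 5 and 6. Of the 12 factors of 60S assembly, 11 were lower at rest in mtDNA NZB cells by sign, with a median of -0.25. The median over the 44 was -0.08, against -0.01 over all genes. The same resting libraries are the baseline of the mtDNA NZB activation responses, so low resting values of these factors also enter their rises.

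After activation no factor differed, at 0% of all genes, and 1 had an unadjusted p under 0.05 against 3.09% of all genes. That was Polr1c, at 71.2 to 98.8 CPM (median 80.7) in mtDNA B6 and 81.3 to 135 CPM (median 96.7) in mtDNA NZB libraries, a difference of 0.29 ± 0.14 (unadjusted p = 0.0412, adjusted p = 1). The groups overlapped widely. 34 of the 44 differences were positive, between -0.36 and 0.58, with a median of 0.06, as were 5628 of the 10566 differences over all genes, with a median of 0.01. A test that was not passed does not show that the levels were alike, since SEs at this depth were 0.11 to 0.40.

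**Figure D3:**
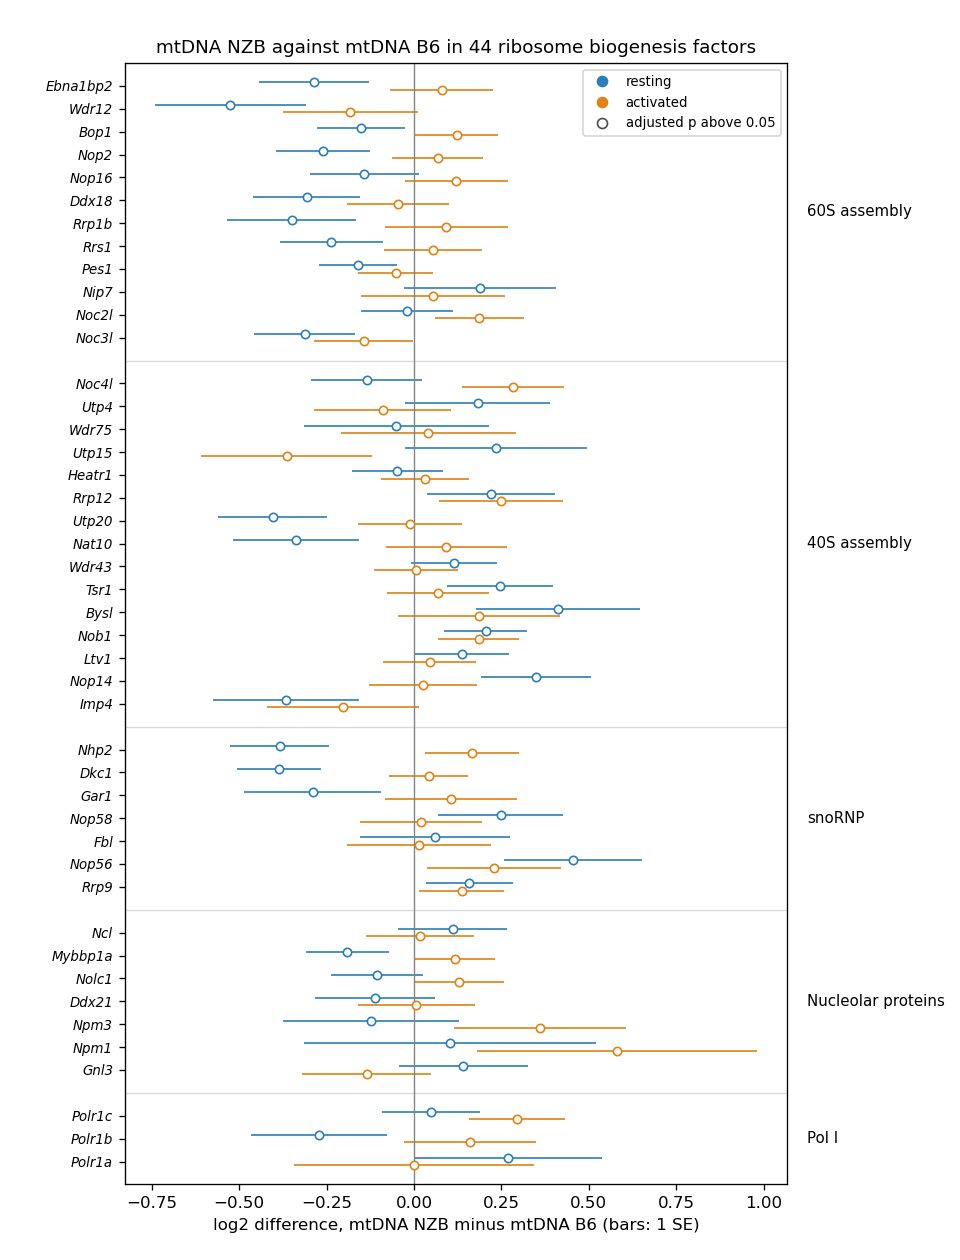
Log2 difference of mtDNA NZB minus mtDNA B6 cells for the 44 factors at rest (blue) and after activation (orange), by role, with bars of 1 SE. All points are open because none passed an adjusted p of 0.05. At rest 11 of 12 factors of 60S assembly lie left of 0, and after activation 8 of 12 lie right of it.

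The response to activation itself was not shown to differ between haplotypes for any factor. No factor passed the test of the difference of responses by edgeR or DESeq2, at 0% of all genes, and 2 had an unadjusted p under 0.05 against 14.3% of all genes. They were Nhp2, with a difference of 0.55 ± 0.20 (unadjusted p = 0.00909, adjusted p = 0.232), and Dkc1, with 0.43 ± 0.16 (unadjusted p = 0.0147, adjusted p = 0.245). Noc4l followed, with 0.42 ± 0.22 (unadjusted p = 0.0633, adjusted p = 0.375). All 3 were the larger in mtDNA NZB cells. Because this difference shares the resting libraries with the comparison at rest, the low resting values of Dkc1 and Nhp2 in mtDNA NZB cells enter both. 28 of the 44 differences were positive, with a median of 0.17 against 0.02 over all genes. With 21 libraries, leaving out replicates 2 and 6 at rest and replicate 6 after activation of mtDNA NZB, 6 factors had an unadjusted p under 0.05 and none passed, with Nhp2 closest (0.68, adjusted p = 0.0764).

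Further genes of the pathway, outside the 45, were also tested. Of 120, 23 rose and 20 fell with mtDNA B6 and 35 rose and 25 fell with mtDNA NZB, with medians of 0.04 and 0.07. Among all genes 22.4% rose and 24.5% fell with mtDNA B6, and 25.2% rose and 28.4% fell with mtDNA NZB. Of 12 further genes of the RNA polymerase I machinery, 1 rose and 2 fell with mtDNA B6 and 3 rose and 3 fell with mtDNA NZB, from Polr1e, a polymerase subunit (0.35 and 0.56), to Taf1a, a subunit of its promoter factor (-0.86 and -0.46). Of 7 factors that assemble snoRNPs, 3 rose and none fell in both haplotypes, while 3 and 4 had an unadjusted p under 0.05. Pih1d1, the highest, gave 0.60 ± 0.14 and 1.08 ± 0.14, and Znhit6, the lowest, gave -0.15 and 0.10. The other two that rose were Ruvbl1 (0.37 and 0.95) and Ruvbl2 (0.57 and 1.07), named after their values were seen, which with Pih1d1 belong to the R2TP chaperone complex.

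Of 43 further factors of 40S assembly, 9 rose and 7 fell with mtDNA B6 and 10 rose and 7 fell with mtDNA NZB, between Utp6, a processome protein (0.77 and 0.78), and Fcf1, a processome nuclease homologue (-1.58 and -1.43, at 1.11 to 4.29 CPM by group mean). Of 46 further factors of 60S assembly, 5 rose and 11 fell with mtDNA B6 and 9 rose and 15 fell with mtDNA NZB. Brix1, a pre-60S factor, was the highest there (0.99 and 0.31) and Mdn1, the AAA ATPase that strips factors from pre-60S particles, the lowest (-1.22 and -1.46, both passing). Of 12 proteins of the RNA exosome, which trims ribosomal RNA precursors, 5 rose in mtDNA B6 and 10 in mtDNA NZB cells. None fell in either, by edgeR. Exosc8 was the highest (0.87 ± 0.09 and 1.13 ± 0.09) and Exosc1 the lowest by mean (-0.04 and 0.06). Beside these lists, 22.4% and 25.2% of all genes rose and 24.5% and 28.4% fell, with mtDNA B6 and mtDNA NZB.

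Myc, the transcription factor named above, had a mean of 130 ± 27.8 CPM (SD, n = 6) in resting and 75.6 ± 13.7 CPM in activated mtDNA B6 cells, a fall of 0.79 on the log2 scale (SE 0.23, adjusted p = 0.00632). With mtDNA NZB the means were 115 ± 42.5 and 101 ± 37.5 CPM (log2 fold change -0.25 ± 0.24, adjusted p = 0.385). Its partner Max did not pass in either haplotype (-0.06 and -0.20). The transcript level at 72 h says nothing of the hours before.

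Ribosomal proteins, which these factors assemble with ribosomal RNA, were more often called lower than higher. Of 78 transcripts for cytosolic ribosomal proteins, none rose and 36 fell with mtDNA B6, and 1 rose and 33 fell with mtDNA NZB, with medians of -0.39 and -0.34. Of all genes tested, 24.5% fell with mtDNA B6 and 28.4% with mtDNA NZB, and 22.4% and 25.2% rose. At an unadjusted p under 0.05, 0 and 2 of the ribosomal protein transcripts were higher and 42 and 38 lower. In sum they took 209929 to 298131 CPM in resting and 178338 to 216356 CPM in activated mtDNA B6 libraries, where the ranges overlapped slightly.

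**Figure D4:**
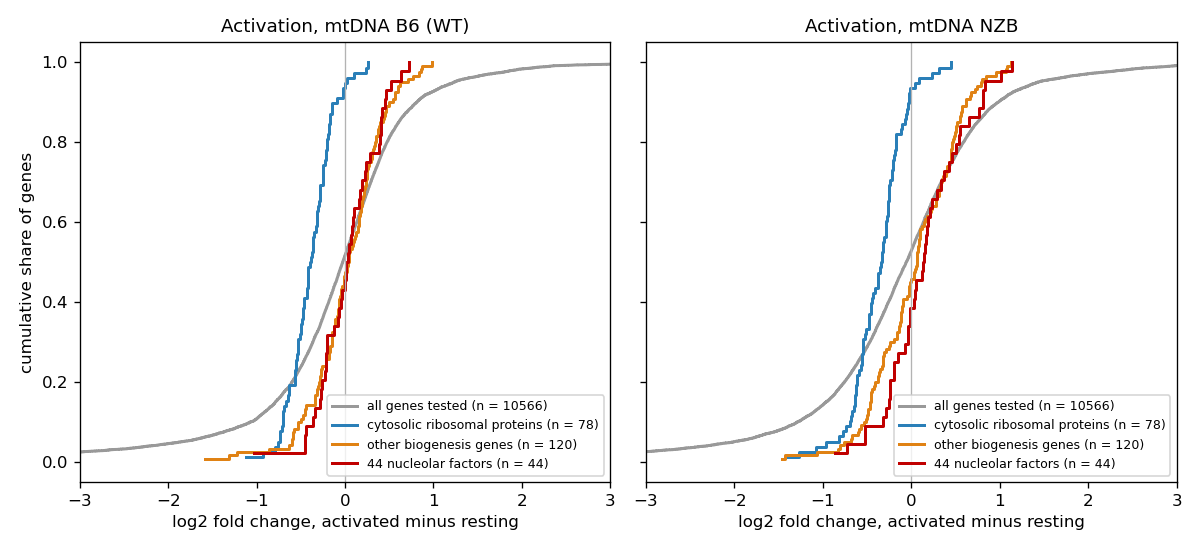
Cumulative share of genes by log2 fold change of activated against resting cells, in mtDNA B6 (left) and mtDNA NZB (right) cells, for the 44 nucleolar factors (red), 120 other biogenesis genes (orange), 78 cytosolic ribosomal proteins (blue) and all 10566 genes tested (grey). The axis is limited to -3 to 3, which leaves out the ends of the grey curve. The red curve crosses the middle at 0.02 and 0.14, near the grey one at -0.03 and -0.06, and the blue one lies to the left at -0.39 and -0.34.

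Promoters of the members were read for the E-box CACGTG, which is its own reverse complement, in RefSeq windows from 250 bases before to 50 bases after the start site (GRCm38.p6). A window was found for 40 of 45 members. 9 of the 40 (22.5%) held the motif, against 8.09% of 27025 genes with a window and 8.91% of the 17492 protein-coding ones. Of 101 other pathway genes, from a list that here also held Myc and Max, 17.8% did so. The 5 shown are those of the members called in either haplotype, Nop2, Mybbp1a and Imp4, and of 2 that did not pass, Pes1 and Utp4, so that the same letters can be seen beside different responses. Each is 30 bases, 5′ to 3′ on the gene's strand, with the E-box in capitals.
Nop2 (chr6:125131811-125131840, plus strand, motif at -60 from the start site): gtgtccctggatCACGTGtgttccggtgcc
Mybbp1a (chr11:72441347-72441376, plus strand, motif at 41): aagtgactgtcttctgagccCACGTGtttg
Imp4 (chr1:34439696-34439725, plus strand, motif at -121): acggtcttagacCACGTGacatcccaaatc
Pes1 (chr11:3963965-3963994, plus strand, motif at 3): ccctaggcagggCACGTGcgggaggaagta
Utp4 (chr8:106893643-106893672, plus strand, motif at 16): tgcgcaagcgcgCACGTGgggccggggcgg

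The other members with the motif were Wdr43, Utp20, Ltv1 and Tsr1. Of the 9 members with it, none rose and 1 fell with mtDNA B6, also at an unadjusted p under 0.05, and 2 rose and 1 fell with mtDNA NZB, with medians of -0.05 and 0.13. Of the 30 tested members whose window lacks it, 5 rose and 3 fell and 10 rose and 2 fell, with medians of 0.02 and 0.15. The shares over all genes tested were 22.4% higher and 24.5% lower with mtDNA B6, and 25.2% and 28.4% with mtDNA NZB. Of the factors that rose in both haplotypes, Ncl, Dkc1, Nhp2, Noc4l and Ebna1bp2 hold no CACGTG in this window, and Bop1 had no window. A match of letters is not a measured binding site, and a window without them says nothing of other E-box forms or of more distant sites.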

How the data were processed

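Bulk MARS-seq data of Tconv CD4+ cells were analysed, with 24 libraries whose group and replicate come from their labels. Treg libraries and 1 column that matched no sample were not used. Per the paper's methods, the authors trimmed reads with cutadapt, dropped those under 30 bases, aligned the rest (STAR) to the 1000 bases of each gene's 3′ UTR region in GRCm39 with Ensembl annotation, counted with htseq-count, collapsed UMIs and corrected them for saturation. The authors deposited these counts as whole numbers without scaling, beside a second, larger count table that served as an alternative. 3′ counting can divide reads between overlapping genes or copies: 12 members overlap a protein-coding gene in their last 1000 bases.

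Genes were fitted in R 4.3.3 with edgeR 4.0.16 (TMM, filterByExpr, quasi-likelihood test, 4 groups together, no covariate, Benjamini-Hochberg adjustment over 10566 genes). SE is the size of the log2 fold change divided by the square root of F. Genes were called at adjusted p values up to 0.05. Scripts were tested on simulated data. Replicates differed by more than sampling noise in every pair (lowest chi-square per degree of freedom 2.77), and p-values measure only the spread between these libraries. DESeq2 1.42.0, other scalings, filters and tables, a library set term, replicate blocks, 12 or 21 libraries and leaving out each library were tried. The 21 libraries leave out 3 of mtDNA NZB (replicate 6 of each state and replicate 2 at rest), a choice taken from an earlier analysis of these data. Coordinates come from GENCODE vM39 on GRCm39, promoters from RefSeq on GRCm38.p6, where 5 members had no window. Copies were searched with BLAST. Members given with values were, per role, the 2 highest and the lowest, those that fell or missed the test, and those with the smallest p for a difference of responses. The members, lists and tests were chosen with earlier results of these data known.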

Additional observations from a re-analysis of the deposited data

Results flagged for a closer look

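21 of 176 sets of values (44 factors in 4 groups of 6 libraries) held a library far from the others by Dixon's criterion, where chance gives about 1 in 20. 14 of the 21 were in resting mtDNA NZB replicate 2, the shallow library in which a count equals 16.7 CPM. It was lowest for Polr1b, Gar1, Wdr75, Wdr12 and Ddx18 (each 0 CPM), Npm3 and Ddx21 (16.7 CPM each), Nop2 (33.4 CPM) and Noc2l (50.2 CPM), and highest for Npm1 (184 CPM), Nat10 (83.6 CPM), Pes1 (66.9 CPM), Rrs1 (50.2 CPM) and Utp20 (33.4 CPM).

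The other 7 lay in other libraries. Activated mtDNA NZB replicate 1, which held 641467 UMIs, was highest for Npm1 (47.2 CPM) and lowest for Fbl (20.0 CPM), and replicate 3 of that group was lowest for Imp4 (5.21 CPM). Activated mtDNA B6 replicate 5 was highest for Nop2 (112 CPM) and Nip7 (13.0 CPM), and replicate 6 was lowest for Utp4 (29.6 CPM). Resting mtDNA B6 replicate 1 was lowest for Nat10 (20.8 CPM).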

How the results depend on the processing

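The 6 factors that rose in mtDNA B6 cells became 11 without resting mtDNA NZB replicates 5 and 6 and 10 in a fit of 12 libraries, and were 6 to 8 when any library was left out. The 4 that fell became 1 with DESeq2, with library set as a term (24 or 21 libraries), with no filter on low counts and with the second table, and 2 with a replicate block by title number. They were 1 to 4 when libraries were left out, 1 without activated replicate 4 or resting replicates 1, 5 or 6 and 2 without activated replicates 2 or 6 (all mtDNA B6) or resting mtDNA NZB replicate 2. The 13 that rose in mtDNA NZB cells became 7 with a replicate block by label number (24 or 21 libraries) and were 11 to 15 by library left out. The 3 that fell were 3 to 5, with 5 without activated replicate 5. The 2 at 2-fold or more became 0 and 1 under that block (24 and 21 libraries), 1 with the second table and 1 with the stricter filter, and were 1 to 2 by library left out, 1 without activated mtDNA NZB replicate 5 or resting replicates 4 or 5. In mtDNA B6 cells the count at 2-fold or more was 0 throughout. Other biogenesis genes that rose in mtDNA B6 cells (23) became 13 with library set as a term (24 or 21 libraries), 37 without resting mtDNA NZB replicates 5 and 6 and 35 in the fit of 12, and were 18 to 31 by library left out. In mtDNA NZB cells (35) they became 20 and 23 under the label block and were 29 to 40. Differences between haplotypes were 0 under all alternatives tried at activation and for the responses, and 0 to 1 at rest by library left out. The medians were -0.03 to 0.07 and 0.09 to 0.20. Nop56 in mtDNA NZB cells turned to 0.41 without resting replicates 5 and 6, and Rrp1b to -0.015 with 21 libraries and the label block. The cause of these changes was not tested, and the shares over all genes under these alternatives are not given here. 3 of 9 label numbers shared between groups had correlated deviations over 0.1 (-0.16 to 0.25). The paper's methods state that isolated cells were split into a resting and an activated group, so libraries that share a number may be paired. The labels do not say whether a shared number marks 1 mouse, which these values do not settle. No block was used in the reported values, so their tests take no account of such pairing. The blocks were nested in haplotype, so they gave the difference of responses but no comparison of haplotypes at a state, and the fit of 12 gives no difference of responses.

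By the ratio of the second table's total to the UMI total (the sources used here do not describe that table) the libraries formed 3 sets of 8 (1.88 to 1.96, 2.11 to 2.24 and 2.68 to 2.80), which hold 0, 4 and 2 resting and 5, 1 and 0 activated mtDNA B6 libraries, so set and state are largely confounded there. With the set as a term Polr1b, Gnl3, Noc3l and Ebna1bp2 no longer passed in mtDNA B6 cells, and over 21 libraries nor did Dkc1 and Bop1, which left 4 that rose there, with Utp15 gained.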
